A study of Mus musculus with 24 samples.

Results

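Pyruvate and the carbon skeletons of leucine, isoleucine and valine meet in the same mitochondrial cycle, and the transcripts of 38 genes of these routes were followed in white fat. They comprised 17 TCA and pyruvate genes (Cs to Pcx in the order of the cycle, with pyruvate dehydrogenase and pyruvate carboxylase) and 21 amino acid genes (Bcat2 to Ppm1k, from the first transamination to propionyl-CoA disposal and the regulators of the pathway). Membership follows the pathway a gene belongs to. Each was found through the accession of its array probe, with Mut looked up under its present symbol Mmut, and all 38 were measured, among 21063 features tested in all.

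The samples were epididymal white adipose tissue, the visceral depot along the epididymis, from 24 male C57BL/6JRcc mice. The mice were 8 or 9 weeks old at the start and 28 or 29 weeks old at the end. After 2 weeks in which every mouse ate the Ctrl NR diet, 12 mice received the No NR diet and 12 stayed on Ctrl NR, for 18 weeks. No NR held 0 mg and Ctrl NR 30 mg per kg of nicotinamide riboside (NR), a vitamin B3 precursor of NAD. Both diets supplied 40% of their energy as fat, 19% as protein and 41% as carbohydrate, with a low tryptophan content of 0.115%. Every mouse was killed after an imposed fast and 4 hours of refeeding with 1.8 g of food. A restricted amount of 0.8 g was also listed for every mouse. The RNA of each mouse, labelled with Cy5, was hybridised on its own array together with a shared Cy3 reference mixed from the same depot, in which other diets and 4 females were included, so a level here is a log2 ratio of 1 mouse over that reference and cannot be compared between genes.

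The TCA cycle oxidises acetyl-CoA to carbon dioxide and hands the electrons to NAD and FAD. Isocitrate, oxoglutarate and malate dehydrogenase reduce NAD, as do pyruvate dehydrogenase and the branched-chain ketoacid dehydrogenase that commits leucine, isoleucine and valine to oxidation. Fat cells are a substantial site of branched-chain amino acid breakdown: leucine yields acetyl-CoA and acetoacetate, while valine and isoleucine yield propionyl-CoA, which is carboxylated and rearranged to succinyl-CoA and so enters the cycle. In obesity with inflammation of the fat pad, transcripts of these enzymes are known to be low in white fat.

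The adipocyte markers fit the labelled tissue. All 24 listed adipocyte markers, among them Adipoq, Plin1 and Cidec, were well above background on all 24 arrays. Of 14 skeletal muscle genes, 4 passed the filter, 2 were above background on every array, and Ckm, Myh4 and Mylpf were on 0 arrays. Of 11 epididymis and testis genes, 4 passed the filter, 1 was above background on every array, and Defb2, Lcn5 and Spint4 were on 0 arrays. The mean of the 4 that passed ran over -1.85 to 0.97 in No NR mice and -1.64 to 2.25 in Ctrl NR mice. The share of spots detected above background in Cy5 was 34.5% to 50.7% per array. All 38 genes were above background on every array and none was saturated. Mdh2 lost 1 Ctrl NR value to an outlier spot, and its fit rests on 12 and 11 mice. The number of arrays limits the precision, with a median standard error of 0.081 for a log2 fold change over all features. The mean of the 26 measured macrophage markers spread widely within each diet, over -0.99 to 0.55 in No NR mice and -1.48 to 0.60 in Ctrl NR mice, and 24 of these markers were higher in No NR mice (3 at an unadjusted limma p under 0.05, as were 6.87% of all features). Fold changes throughout take No NR mice over Ctrl NR mice.

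The promoters of the paired subunit genes Pccb and Pcca are shown because the products form 1 enzyme, propionyl-CoA carboxylase, and the transcripts lay on opposite sides in the diet comparison. Each window runs from 250 bases before to 50 bases after the annotated start, 5′ to 3′ on the gene's strand, from RefSeq (build GRCm38.p6). Pccb lies on the minus strand at chr9:101034835-101035134 and Pcca on the plus strand at chr14:122534078-122534377, the second of the 2 starts listed for Pcca. Capitals mark the NRF1 core described below.
Pccb: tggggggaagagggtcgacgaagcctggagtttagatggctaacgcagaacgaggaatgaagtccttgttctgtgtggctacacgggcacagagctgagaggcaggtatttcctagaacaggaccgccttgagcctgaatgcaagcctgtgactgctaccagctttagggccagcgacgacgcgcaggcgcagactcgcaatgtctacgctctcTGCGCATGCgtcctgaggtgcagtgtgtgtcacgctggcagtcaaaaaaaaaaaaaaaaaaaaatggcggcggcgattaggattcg
Pcca: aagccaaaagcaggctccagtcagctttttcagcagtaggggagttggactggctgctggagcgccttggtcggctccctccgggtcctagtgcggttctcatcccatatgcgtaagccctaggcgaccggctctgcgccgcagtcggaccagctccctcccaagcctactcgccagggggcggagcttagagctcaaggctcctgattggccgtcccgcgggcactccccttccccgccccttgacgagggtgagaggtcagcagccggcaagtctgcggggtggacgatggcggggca

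NRF1, GABP and the estrogen-related receptors (ERR) are known regulators of nuclear genes for mitochondrial proteins, and exact matches to their short motifs were counted on both strands of the windows of the 33 genes that RefSeq's table covers (Idh3a, Dbt, Acat1, Mmut and Abat have no entry there). The NRF1 core TGCGCANGC was found in Pccb, Dld and Ogdh, 3 of 33 genes, while 4.70% of 27025 genes hold it in such a window. The Pcca window shown has none. The ETS element CCGGAAGT, which GABP binds, was found in Dlst (all genes 4.31%). The E-box CACGTG was found in Mccc2, Ogdh and Pcx (8.09%), and the ERR element TCAAGGTCA in 0 of the 33 (0.466%). The median GC content of the 43 windows of these genes was 58.7%, against 52.7% over all windows. These matches are descriptions of the letters in the windows and occurred in genes of both groups.

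The comparison of the diets asked how white fat responds to the withdrawal of dietary vitamin B3. The TCA and pyruvate genes were spread around 0, with 9 above 0 (higher in No NR mice) and 8 below, whereas 17 of the 21 amino acid genes were below 0 and 4 above. The median log2 fold change was 0.01 for the TCA and pyruvate genes, with a range of -0.19 to 0.29, and -0.09 for the amino acid genes, with a range of -0.35 to 0.30. Over all features the median was -0.01, with 52.4% below 0 and 47.6% above. No gene of the 38 passed limma's test at an adjusted p under 0.05, and neither did any of the 21063 features (0%). Leaving out Ctrl NR mouse 68 gave 227 features and leaving out Ctrl NR mouse 117 gave 222, among them 1 of the 38, Pccb, without mouse 117. At an unadjusted p under 0.05, where 6.87% of all features were higher in No NR mice and 7.24% lower, 2 of the 38 were higher (Idh3b and Pcca) and 4 lower (Pccb, Dbt, Bckdk and Bcat2), so the share of either direction was near that of all features.

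The counts by direction are signs of fold changes that mostly lie within their errors. They ran from 6 to 13 TCA and pyruvate genes higher and from 12 to 18 amino acid genes lower over 14 other settings, and the lowest count of amino acid genes came with the macrophage marker mean as a covariate. In bulk tissue, fewer cells of a type and less RNA per cell cannot be told apart.

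**Figure D1:**
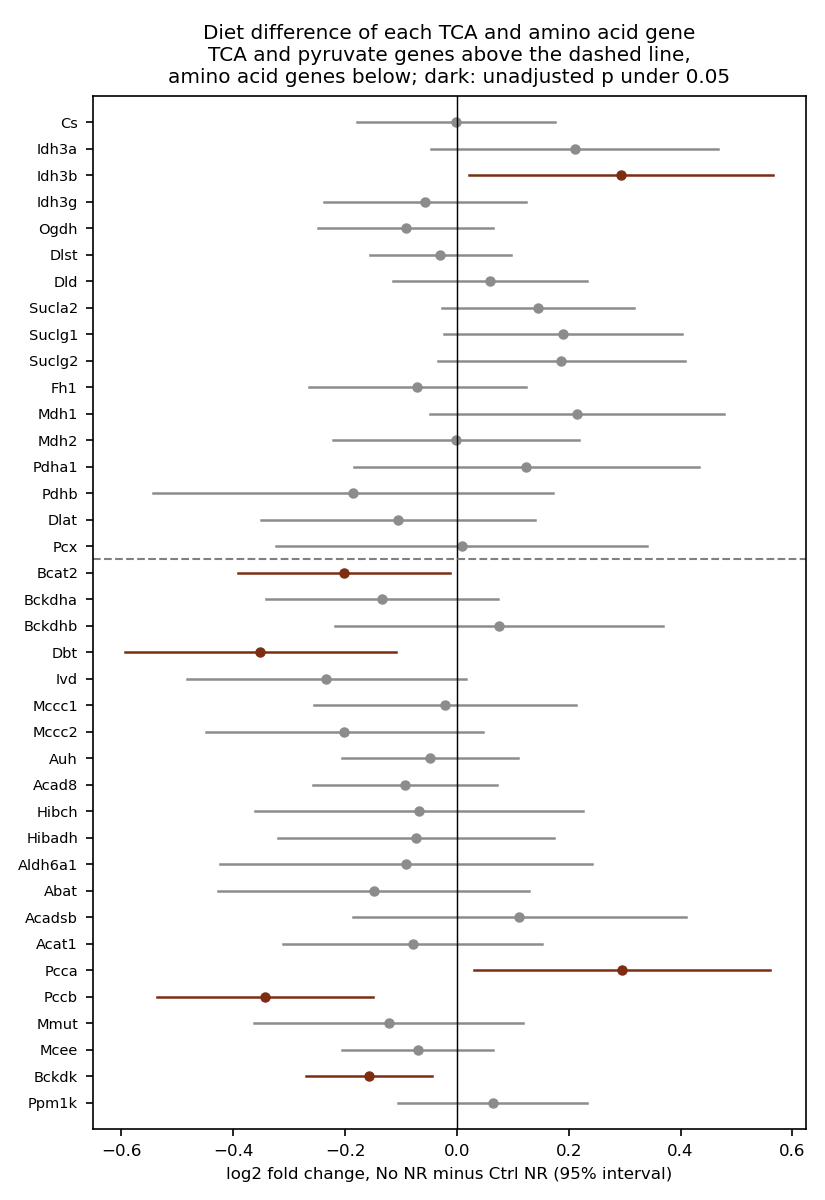
Log2 fold change of each of the 38 genes, No NR minus Ctrl NR, with its 95% interval from limma. TCA and pyruvate genes are above the dashed line and amino acid genes below. The 6 genes in dark colour had an unadjusted p under 0.05, and none passed after adjustment. Of the 14 genes followed through other settings, Sucla2 and Bckdhb move to the left of 0 with median centring over all spots, and Bckdhb also with centring over the tested features.

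Among the genes of the cycle, the largest positive differences, with higher values in No NR mice, were those of isocitrate dehydrogenase, malate dehydrogenase and succinyl-CoA ligase genes. Idh3b encodes a non-catalytic subunit of the NAD-linked isocitrate dehydrogenase. Its log2 ratios ran from a lowest of -0.16 through a median of 0.10 to a highest of 0.49 in No NR mice, and from -1.04 through -0.34 to 0.36 in Ctrl NR mice. Every No NR mouse lay above the Ctrl NR median, but the ranges overlapped. The difference was 0.29 (SE 0.133, unadjusted limma p = 0.0352, adjusted p = 0.313).

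Idh3a, the catalytic subunit, had a lowest value of -0.48, a median of 0.18 and a highest of 0.64 in No NR mice, against -0.78, -0.03 and 0.36 in Ctrl NR mice. The ranges overlapped over most of their width, and the difference of 0.21 (SE 0.125, adjusted limma p = 0.454) was positive within each of the 5 slides. Idh3g, the remaining subunit, did not share this sign. Mdh1, the cytosolic malate dehydrogenase, ran from -0.20 through 0.26 to 0.93 in No NR mice and from -0.50 through 0.13 to 0.72 in Ctrl NR mice, with a difference of 0.21 (SE 0.128, adjusted limma p = 0.455), while its mitochondrial counterpart Mdh2 was near 0.

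Succinyl-CoA ligase is the step at which the cycle regenerates a nucleoside triphosphate, and its shared subunit pairs with an ADP-linked or a GDP-linked partner. The shared subunit Suclg1 ran from -0.16 through 0.14 to 0.45 in No NR mice and from -0.57 through 0.04 to 0.49 in Ctrl NR mice. Its difference was 0.19 (SE 0.104, adjusted limma p = 0.412), that of the GDP-linked Suclg2 was 0.19, and that of the ADP-linked Sucla2 was 0.15, although Sucla2 was at -0.02 with median centring over all spots. None passed. Ctrl NR mouse 64 had the lowest value of Suclg1, Suclg2, Sucla2, Idh3a, Idh3b and Mdh1 among the 24 mice. Without this mouse the differences were 0.14, 0.14, 0.09, 0.15, 0.22 and 0.16.

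The other steps of the cycle and of pyruvate entry had smaller or mixed differences. Citrate synthase (Cs), fumarase (Fh1), the oxoglutarate dehydrogenase genes Ogdh and Dlst, and Dld, the dihydrolipoamide dehydrogenase shared by the ketoacid dehydrogenases, lay between -0.09 and 0.06. A dimmer second probe of Dld was at 0.20 (SE 0.125). Pyruvate dehydrogenase, which makes acetyl-CoA from pyruvate, had Pdha1 above 0 and Pdhb and Dlat below, and pyruvate carboxylase (Pcx), which makes oxaloacetate, was near 0. The 95% intervals of these genes all included 0.

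Of the amino acid genes, those of the first steps and of the ketoacid dehydrogenase complex were mostly lower in No NR mice. Bcat2, the mitochondrial aminotransferase that starts the breakdown, ran from -0.51 through -0.19 to 0.02 in No NR mice and from -0.44 through -0.05 to 0.53 in Ctrl NR mice. The lower ends of both ranges met, and the high values were those of Ctrl NR mice. The difference was -0.20 (SE 0.0924, unadjusted limma p = 0.0381, adjusted p = 0.322), and it was negative on each of the 5 slides.

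Dbt encodes the E2 core of the branched-chain ketoacid dehydrogenase. It ran from -0.73 through -0.30 to 0.22 in No NR mice and from -0.37 through 0.07 to 0.71 in Ctrl NR mice, so that 10 of the 12 No NR mice lay below the Ctrl NR median. The difference was -0.35 (0.784-fold, SE 0.118, unadjusted limma p = 0.00609, adjusted p = 0.183), the most negative of the 38. Of the E1 subunits, Bckdha was at -0.13 and Bckdhb at 0.07 with loess, or -0.10 and -0.03 for Bckdhb with the 2 median centrings. Both intervals included 0 with loess, and the difference from Dbt was not tested.

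The regulators of the complex act on its phosphorylation: the kinase Bckdk inactivates it and the phosphatase Ppm1k reactivates it. Bckdk had the lowest pooled within-diet SD of the 38 (0.117). It ran from -0.25 through -0.13 to 0.03 in No NR mice and from -0.26 through 0.03 to 0.31 in Ctrl NR mice. All 12 No NR mice lay below the Ctrl NR median, with overlapping ranges. The difference was -0.16 (0.897-fold, SE 0.0549, unadjusted limma p = 0.00817, adjusted p = 0.197) and was negative on each slide, at -0.33 to -0.04. Ppm1k had an interval across 0.

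The separate routes of the 3 amino acids followed. All 4 leucine genes were below 0 in No NR mice, though none reached an unadjusted p under 0.05. Ivd, the isovaleryl-CoA dehydrogenase, was the largest of them, running from -0.46 through -0.18 to 0.34 in No NR mice and from -0.41 through 0.13 to 0.74 in Ctrl NR mice, a difference of -0.23 (SE 0.121, adjusted limma p = 0.388). The leucine carboxylase subunits Mccc1 and Mccc2 and the hydratase Auh lay between -0.20 and -0.02. All 5 genes listed for valine (Acad8, Hibch, Hibadh, Aldh6a1 and Abat) lay between -0.15 and -0.07, each with an interval across 0. For isoleucine, the dehydrogenase Acadsb was above 0 and the thiolase Acat1 below.

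Propionyl-CoA, the product of valine and isoleucine, is carboxylated by an enzyme built from Pcca and Pccb, and these 2 transcripts lay on opposite sides. Pccb, the carboxyltransferase subunit, ran from -0.56 through -0.25 to 0.22 in No NR mice and from -0.26 through 0.11 to 0.73 in Ctrl NR mice. The difference was -0.34 (0.788-fold, SE 0.0938, unadjusted limma p = 0.00109, adjusted p = 0.105), and 11 of the 12 No NR mice lay below the Ctrl NR median. Pcca, the biotin-carrying subunit, ran from -0.04 through 0.21 to 0.60 in No NR mice and from -0.78 through -0.12 to 0.59 in Ctrl NR mice, with a difference of 0.30 (1.23-fold, SE 0.129, unadjusted limma p = 0.0300, adjusted p = 0.299). All 12 No NR mice lay above the Ctrl NR median of Pcca. With 1 mouse left out at a time, the smallest difference of Pcca was 0.23, without Ctrl NR mouse 64. The epimerase Mcee and the mutase Mmut, which complete the route to succinyl-CoA, had intervals across 0.

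Pccb was the nearest of the 38 to the adjusted threshold. It passed with array weights (adjusted limma p = 0.0395) and without Ctrl NR mouse 117 (adjusted limma p = 0.0493). The adjusted p was 0.0854 with the macrophage marker mean as a covariate, where the difference was -0.28. Over the 14 other settings the adjusted limma p of Pccb ran from 0.0395 to 0.999927, and its difference from -0.38 to -0.28. Within slides Pccb was at -0.51 to -0.09 and Pcca at -0.13 to 0.48, with Pcca negative only on slide 1, which holds 1 No NR mouse.

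The pair was set against each other within each mouse, a measure chosen after the values were seen and given here without a test. Pccb minus Pcca ran from -0.90 through -0.46 to -0.18 in No NR mice and from -0.62 through 0.26 to 0.76 in Ctrl NR mice. Pccb was below Pcca in 12 of 12 No NR mice and in 4 of 12 Ctrl NR mice, and 9 Ctrl NR mice lay above the highest No NR mouse. A common scaling of an array cancels in this difference, but a probe's own response does not.

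The same was done for the gene groups as wholes. The mean of the amino acid genes minus the mean of the TCA and pyruvate genes had a lowest value of -0.21, a median of -0.14 and a highest of 0.00 in No NR mice, and -0.12, 0.01 and 0.20 in Ctrl NR mice. It was below 0 in 11 of 12 No NR mice and in 6 of 12 Ctrl NR mice, and all 12 No NR mice lay below the Ctrl NR median while the ranges overlapped. The means were -0.13 ± 0.0688 in No NR mice and 0.01 ± 0.0921 in Ctrl NR mice (SD, n = 12 each), a difference of -0.14. No test is given, since the groups were chosen with results of these arrays known.

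The TCA and pyruvate mean was -0.01 ± 0.164 in No NR mice and -0.06 ± 0.226 in Ctrl NR mice. The amino acid mean was -0.14 ± 0.205 in No NR mice and -0.05 ± 0.221 in Ctrl NR mice (SD, n = 12 each). Ctrl NR mouse 64 had the lowest TCA and pyruvate mean of the 24 mice, at -0.49. How much of the gap lay in either gene group was not tested. Within slides 1 to 5 the gap between the groups differed between diets by 0.02, -0.18, -0.15, -0.10 and -0.23. Without Pcca and Pccb it was -0.15. With macrophage or adipocyte marker means as a covariate it was -0.13, and with median centring over all spots or over the tested features -0.09. Several marker means moved with the gap across the 24 mice: endothelial (r = 0.641), erythroid (0.495), macrophage (-0.459), mesothelial (0.402), adipocyte (0.385) and stromal progenitor markers (-0.372). Diet means were not subtracted for these correlations, so they include any difference between diets. All 14 endothelial markers were above background on every array. Their mean ran over -0.49 to 0.13 in No NR mice and -0.39 to 0.28 in Ctrl NR mice, with 11 of the 14 markers lower in No NR mice and 5 at an unadjusted p under 0.05, as were 7.24% of all features. The mesothelial mean (9 of 9 markers lower) ran over -0.81 to 0.36 in No NR mice and -1.01 to 0.80 in Ctrl NR mice. The erythroid mean (3 of 3 measured markers lower) ran over -0.76 to 0.36 in No NR mice and -0.84 to 0.70 in Ctrl NR mice. The part of endothelial, mesothelial or erythroid transcripts in the gap was not tested.

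**Figure D2:**
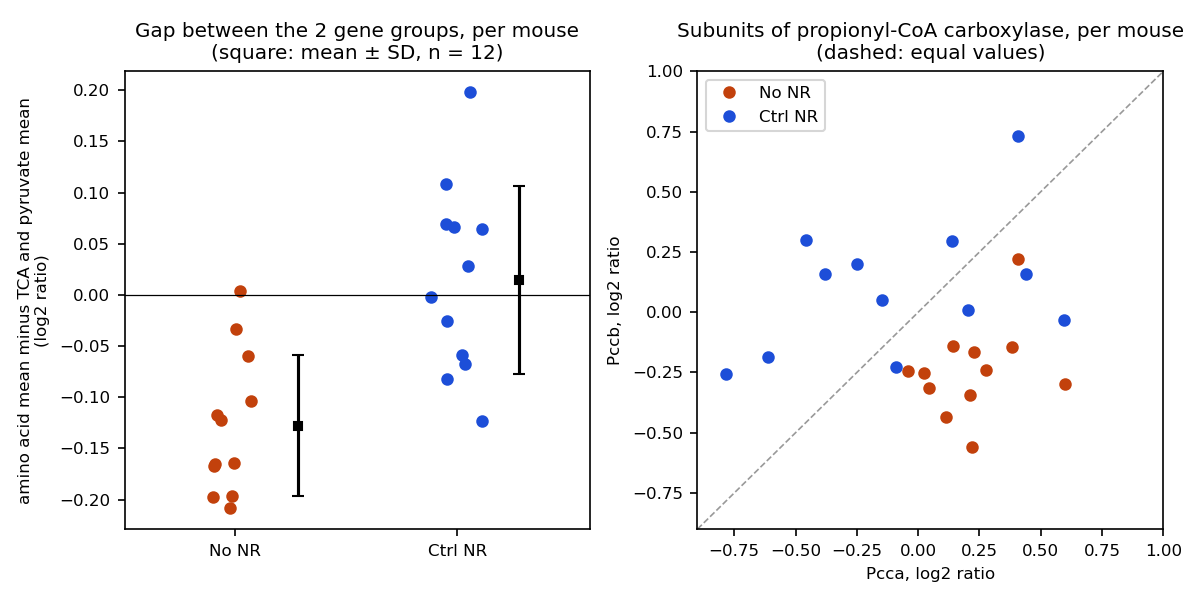
Left, the amino acid mean minus the TCA and pyruvate mean of log2 ratios in each mouse, with the mean ± SD of 12 mice per diet as a square: all 12 No NR mice lie below the Ctrl NR median of 0.01. Right, the log2 ratio of Pccb against that of Pcca, with No NR and Ctrl NR mice in different colours and equality dashed: all 12 No NR mice lie under the line, and 4 of 12 Ctrl NR mice do.

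For both gene groups the SD of the group mean over the mice of a diet exceeded the difference between diets, and most of the 38 genes varied with the macrophage markers. After diet was accounted for, 37 of the 38 genes had a negative slope on the macrophage marker mean, and 27 were called negative by limma at an adjusted p under 0.05, with 0 called positive. Of all 21037 features in this fit, the 38 genes included, 10.2% were called negative and 16.2% positive, so 71.1% of these genes stood against 10.2%. The share was not particular to these genes. It was 66.2% of 71 nuclear-encoded genes of oxidative phosphorylation, 45.8% of 24 genes of fatty acid oxidation and 83.3% of the 24 adipocyte markers. The median slope was -0.23 log2 units per log2 unit of the marker mean in the TCA and pyruvate genes (11 of 17 called), -0.28 in the amino acid genes (16 of 21 called) and 0.01 over all features. These slopes describe covariation of transcripts within 1 RNA extract, and the macrophage mean opposed the adipocyte marker mean at r = -0.944 over the 24 mice, so more macrophage RNA and less fat-cell RNA cannot be told apart.

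The sign of the slopes turned for all 38 genes but Bckdk, already positive, in 1 of the settings tried. When each array was centred on the median of all its spots in place of loess, all 38 slopes were positive, with 17 TCA and pyruvate and 18 amino acid genes called positive, and the median slope of all features moved to 0.33, with 6 features called negative and 17447 positive. Relative to that median, the TCA and pyruvate genes were then at 0.09 and the amino acid genes at -0.03. The median ratio of the tested features then ran over -1.72 to 0.01 in the No NR arrays and -1.19 to -0.09 in the Ctrl NR arrays. Centred on the tested features, a setting added after the data were seen, the TCA and pyruvate genes had a median of -0.03 (2 called) and the amino acid genes -0.20 (11 called), against -0.05 over all features, of which 61.9% of the calls were negative (38.6% with loess). There, 10 of 17 and 20 of 21 slopes were below 0. The deposited processed signals gave 14 and 20 negative calls and the values deposited by the authors gave 11 and 19, and in both all 17 and all 21 slopes were below 0. Negative calls were also more frequent over all features there. They numbered 3987 (51.9% of the calls) with the processed signals and 4346 (60.5%) with the authors' values, against 2137 with loess. The amino acid genes thus had a median slope below that of all features in each of these settings, by 0.03 to 0.33, and the TCA and pyruvate genes were above it with both median centrings.

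**Figure D3:**
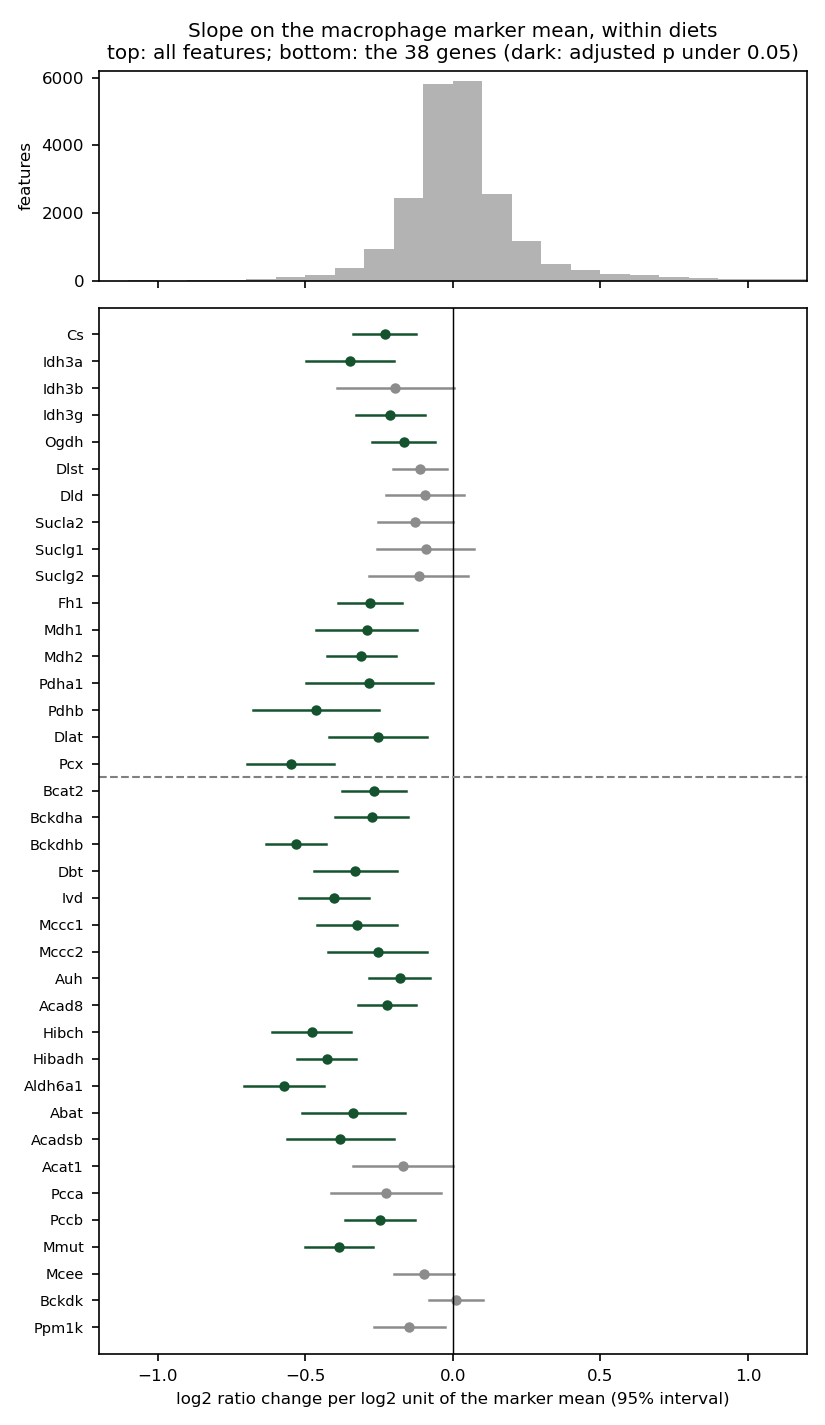
Slope of the log2 ratio on the macrophage marker mean, within diets and with loess. The top panel counts all features per slope interval of 0.1 and the bottom panel gives the 38 genes with 95% intervals, TCA and pyruvate genes above the dashed line; 37 lie left of 0, and 27 (dark) passed at an adjusted p under 0.05. With median centring over all spots all 38 lie right of 0.

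With loess, the steepest slopes among TCA and pyruvate genes were those of Pcx, Pdhb and Idh3a. Pcx, which makes the oxaloacetate that citrate export for fat synthesis draws on, ran from -0.72 through -0.14 to 0.74 in No NR mice and from -0.80 through 0.02 to 0.37 in Ctrl NR mice, and had a slope of -0.55 (SE 0.0719, adjusted limma p = 6.14e-07). Pdhb, the E1 beta subunit of pyruvate dehydrogenase, ran from -0.62 through 0.07 to 0.45 in No NR mice and from -0.50 through 0.01 to 1.48 in Ctrl NR mice, with a slope of -0.46 (SE 0.105, adjusted limma p = 0.00111). Its slope was -0.14 within No NR mice and -0.69 within Ctrl NR mice (limma interaction, unadjusted p = 0.00754, adjusted p = 0.417). With 1 mouse left out it ran from -0.57 (without No NR 118) to -0.35 (without Ctrl NR 115, the highest Pdhb value). Idh3a had a slope of -0.35 (adjusted limma p = 0.000478). The lowest Pdhb value belonged to No NR mouse 118, whose macrophage marker mean was among the lowest of its diet. With median centring over all spots the slopes of Pcx, Pdhb and Idh3a turned positive, to 0.29, 0.29 and 0.37.

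The least steep TCA and pyruvate gene was Suclg1, at -0.09 (SE 0.0797, adjusted limma p = 0.449), 0.45 with median centring over all spots and 0.06 over the tested features, and none of the 3 ligase genes was called with loess. All 3 pyruvate dehydrogenase genes and all 3 fumarase and malate dehydrogenase genes were called. Ogdh depended on its probe: the brightest of 3 gave -0.17 (called), the dimmest 0.25, and their mean 0.00. Second probes of Pdhb, Dld, Mccc1 and Aldh6a1 had the same sign as the probe used.

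Among amino acid genes, Aldh6a1, Bckdhb and Hibch were steepest. Aldh6a1, which converts methylmalonate semialdehyde of valine to propionyl-CoA, ran from -1.07 through -0.61 to 0.28 in No NR mice and from -1.32 through -0.29 to 0.13 in Ctrl NR mice, with a slope of -0.57 (SE 0.0665, adjusted limma p = 7.32e-08). Bckdhb, the E1 beta subunit of the ketoacid dehydrogenase, ran from -0.32 through -0.01 to 0.58 in No NR mice and from -0.73 through 0.05 to 0.58 in Ctrl NR mice, and its slope of -0.53 (SE 0.0498, adjusted limma p = 1.18e-09) had the lowest p of the 38. Hibch, the valine-route hydrolase, ran from -0.86 through -0.34 to 0.39 in No NR mice and from -0.84 through -0.23 to 0.26 in Ctrl NR mice, with a slope of -0.48 (SE 0.0661, adjusted limma p = 1.5e-06). With median centring over all spots these slopes too were positive, at 0.24, 0.25 and 0.27.

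By step, all 5 valine genes, all 4 leucine genes and all 3 ketoacid dehydrogenase subunits were called negative with loess. Dbt was at -0.33 and Pccb at -0.25, both called, and Pcca at -0.23 was not (adjusted limma p = 0.0686). Pcca was called without Ctrl NR mouse 68 or 75 or No NR mouse 118, at an adjusted p of 0.0441, 0.0139 and 0.0331. Neither regulator was called. Bckdk was flat at 0.01 (95% interval -0.08 to 0.10), with a sign that changed with the processing (-0.10 with the deposited processed signals, 0.44 with median centring over all spots).

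The slope did not differ detectably between diets. The interaction of diet and macrophage marker mean was called for 0 of the 21037 features by limma (0%). At an unadjusted p under 0.05, which 10.2% of all features reached, 7 of the 38 genes were listed, 4 TCA and pyruvate and 3 amino acid genes.

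**Figure D4:**
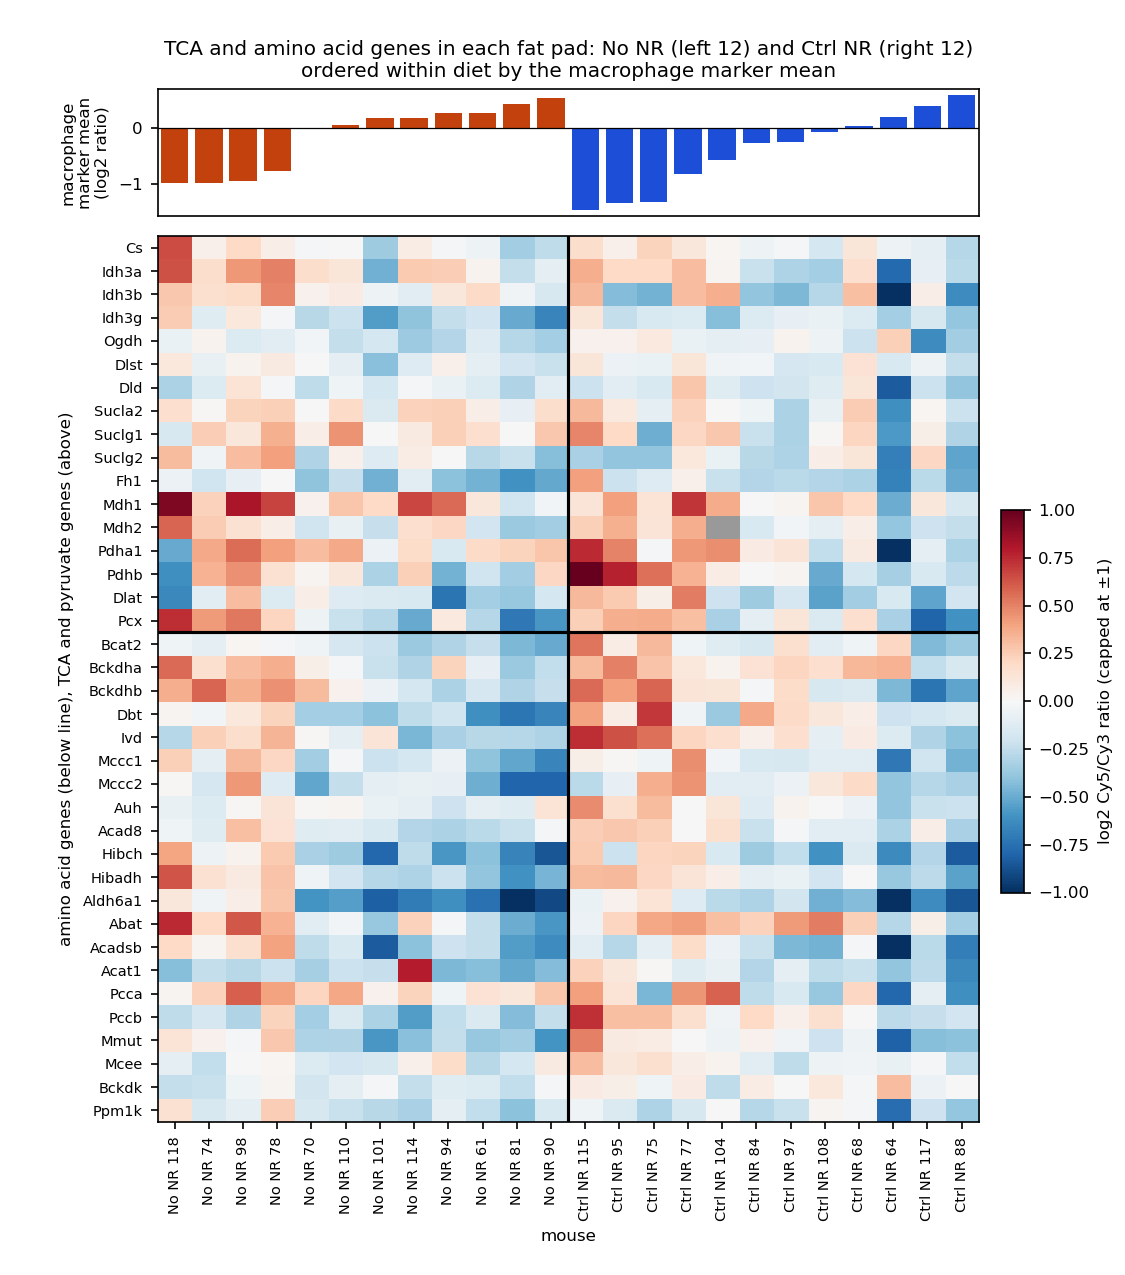
Log2 Cy5/Cy3 ratio of the 38 genes in each mouse (loess, colour capped at ±1, grey for the 1 missing value), with No NR mice on the left and Ctrl NR mice on the right, each ordered by the macrophage marker mean in the bars above. Most rows pass from red to blue as the markers increase within either diet, and Bckdk does so in neither. Suclg1, Mcee and Acat1 do not in No NR mice (slopes of 0.03, 0.02 and 0.01), nor does Suclg2 in Ctrl NR mice (0.05). Auh, Pdha1 and Dld are nearly flat in No NR mice (-0.01, -0.02 and -0.04). With median centring over all spots the slopes are positive.

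Genes of the same enzyme did not always travel together from mouse to mouse. After diet means were subtracted, the median correlation over the 24 mice was 0.49 within the TCA and pyruvate genes (136 pairs), 0.53 within the amino acid genes (210 pairs) and 0.47 between the groups (357 pairs). All ratios of a mouse share its RNA extract and array, and with the macrophage marker mean also removed the medians were 0.32, 0.09 and 0.21. The closest pairs were Mdh1 with Mccc1 (r = 0.906), Aldh6a1 with Mmut (r = 0.902) and Hibadh with Aldh6a1 (r = 0.899).

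The isoenzymes Mdh1 and Mdh2 reached 0.841. Among subunits of 1 enzyme, Mccc1 and Mccc2 reached 0.813, Pdhb and Dlat 0.785, Sucla2 and Suclg1 0.775 and Pdha1 and Pdhb 0.762. With the macrophage marker mean removed, Sucla2 and Suclg1 were at 0.767, Mccc1 and Mccc2 at 0.733 and Pdha1 and Pdhb at 0.682, while Bckdha and Bckdhb, at 0.649 before, were at -0.01. Pcca and Pccb were at 0.387 and 0.131. The closest partner of Pcca was Pdha1 (0.850), followed among others by Suclg1 (0.812) and Idh3b (0.806), and that of Pccb was Mmut (0.777). Bckdk stood apart, with a median correlation of -0.12 with the other genes, while Ppm1k had 0.559.

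**Figure D5:**
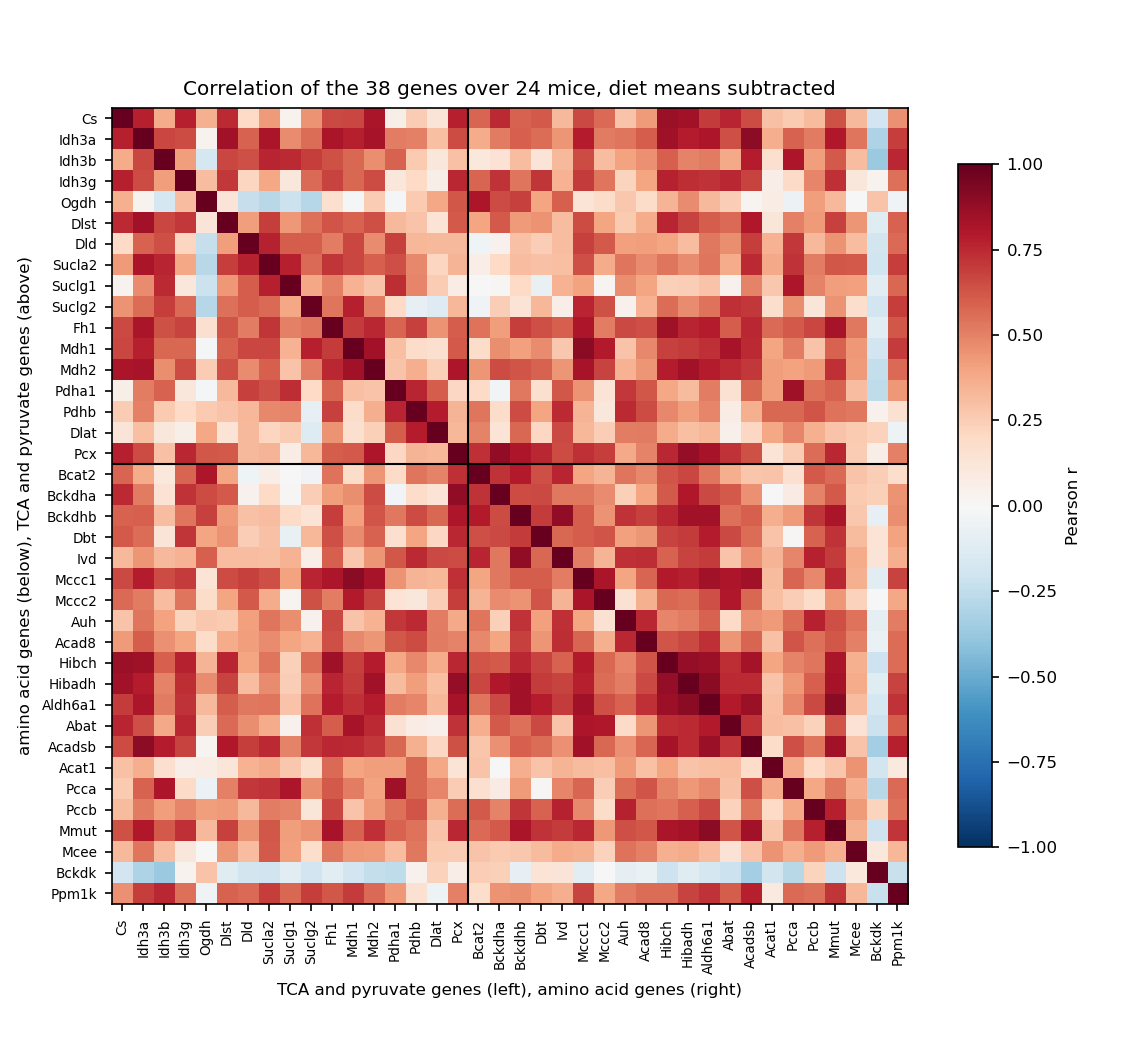
Pearson correlation between each pair of the 38 genes over 24 mice after the mean of each diet was subtracted (loess ratios), with TCA and pyruvate genes first and amino acid genes after the black lines. Most pairs are positive, with medians of 0.49 and 0.53 within the groups and 0.47 between them, and the row of Bckdk is mostly at or below 0.

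Further genes of these pathways (carriers, regulators and neighbouring enzymes) were counted in the same fit. Of 33 further TCA and pyruvate genes, 22 were below 0 and 11 above, with a median of -0.03 and 2 lower at an unadjusted p under 0.05, a threshold at which 7.24% of all features were lower and 6.87% higher. These were Pdk2, a kinase that inactivates pyruvate dehydrogenase, at -0.27 (adjusted limma p = 0.241) and the mitochondrial NADP-linked Idh2 at -0.28 (adjusted limma p = 0.245). Of 32 further amino acid genes, 25 were below 0 and 7 above, the median was -0.09, and 6 were lower and 1 higher at the same threshold. The lowest p-values were those of the amino acid transporter Slc7a8 at -0.29 (adjusted limma p = 0.140), the glutaryl-CoA dehydrogenase Gcdh at -0.22 (adjusted limma p = 0.222) and Slc25a44, the mitochondrial carrier of branched-chain amino acids, at -0.21 (adjusted limma p = 0.315). The thiolase Acaa2 was the 1 gene higher, at 0.16 (adjusted limma p = 0.349), or -0.04 with median centring over all spots.

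On the macrophage marker mean, where 10.2% of all features were called negative and 16.2% positive, 16 of the further TCA and pyruvate genes were called negative and 2 positive with loess, with a median slope of -0.11, and 12 of the further amino acid genes negative and 4 positive, with a median of -0.13. The nearest pathways had medians of -0.19 for 71 nuclear-encoded genes of oxidative phosphorylation (47 called negative) and -0.15 for 24 genes of fatty acid oxidation (11 called negative, 2 positive). Their diet differences had medians of -0.09, with 55 of the 71 below 0, and -0.05, with 15 of the 24 below 0. The median diet difference of the amino acid genes was therefore close to that of oxidative phosphorylation.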

How the data were processed

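Epididymal fat RNA of 24 mice was measured on 24 Agilent 2-colour arrays, all in the same dye orientation (mouse in Cy5, reference in Cy3, per the labels' protocols). Each deposited scanner file gives linear intensity values per spot. The submitters' processing notes name Agilent Feature Extraction, version 10.7.3.1. The table that the authors deposited gives log2 values of 26384 features. Column by column, these tracked the log2 Cy5 signals of the matching array (r of 0.990 or more) rather than its log ratios (r of 0.278 or less), with a median of 8.04 in each column. They were taken as Cy5 intensities in which higher means brighter, and used as an alternative. How they were normalized and filtered is not given in the sources used here.

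Background was corrected on median spot signals (normexp, offset 50), followed by loess within each array, in which control spots had weight 0 (limma 3.58.1, R 4.3.3). After removal of control and outlier spots, 55681 probes remained, and 24786 of them passed the filter, a Cy5 signal above background on 6 or more arrays out of the 12 of a diet. RefSeq's table (GRCm38.p6) named 27235 probes through their unversioned accessions and left 28446 under their probe name. Where a gene had several kept probes, the brightest was used.

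The main test was limma with diet as its single term, 2-sided, adjusted by Benjamini-Hochberg over 21063 features at 0.05. A further fit took diet and the per-array mean of the 26 measured macrophage markers, adjusted over the 21037 features that are not markers, and another their interaction. Missing values (0.113%) were filled with diet means only for means over genes and for correlations. The 5 slides, each with both diets, served as blocks and as strata. The methods were tested on simulated data. Ranges per diet are given for genes with an unadjusted p under 0.05, for the 4 largest differences and for the 3 steepest slopes of each gene group, and further pathway genes were named at an unadjusted p under 0.05, at most 3 per direction and list. The genes, lists and marker sets were chosen with earlier results of these data known. Each array is 1 animal.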

Additional observations from a re-analysis of the deposited data

How the results depend on the processing

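No paired analysis was possible because the mice of the 2 diets carry different numbers and nothing in the labels pairs them. Over 14 other settings, 275 diet differences of the genes given with a fold change, 14 of the 38 and 6 further pathway genes, kept direction and side of the threshold and 5 did not. The exceptions were Pccb with array weights, named above, and reversals of Sucla2 (-0.0152), Bckdhb (-0.0985) and Acaa2 (-0.0397) with median centring over all spots and of Bckdhb (-0.0269) over the tested features. Some settings could not move a fold change of the 38 genes. Scaling intensities between arrays leaves the ratios unchanged, and a changed probe filter kept the same probes of these genes. With 0 features called in the main fit, staying on the same side of the threshold carries little information. The features called for diet, 0 with loess, numbered 1 with centring over the tested features, 3 with the filter on all arrays, 205 with array weights (1 of the 38 genes), 78 with the macrophage and 137 with the adipocyte marker mean as a covariate. Features at an unadjusted p under 0.05, 2973 with loess, numbered 264 with median centring over all spots, 1884 over the tested features and 4557 without a filter, and the genes among the 38 numbered 1 with median centring over all spots and 11 with either covariate. The share of all features with either covariate is not given here, so the 11 are not read as a result about these genes. The difference between diets in the gap of the gene groups, -0.14, was 0.0209 within slide 1 and -0.23 within slide 5.

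With median centring over all spots, 6 features and 0 and 0 of the TCA and amino acid genes were called negative on the macrophage markers. The medians were 0.43 and 0.30, against 0.33 over all features, or 0.0920 and -0.0311 relative to it, and single slopes turned to 0.37 (Idh3a), 0.45 (Suclg1), 0.25 (Bckdhb), 0.16 (Dbt), 0.33 (Pcca), 0.26 (Pccb), 0.29 (Pdhb), 0.29 (Pcx), 0.24 (Aldh6a1), 0.27 (Hibch) and 0.45 (Ogdh). Over the tested features, 7180 features and 2 TCA genes were called negative, the medians were -0.0314 and -0.20 against -0.0519 over all features, or 0.0205 and -0.14 relative to it, and Suclg1 (0.0593) and Ogdh (0.0606) turned positive, as did Ogdh with all probes averaged (0.00292). Bckdk turned to -0.0229 without background correction, -0.10 with the processed signals and -0.0277 with the value table. The processed signals gave 3987 negative calls and an amino acid median of -0.36. The value table gave 4346 calls, an amino acid median of -0.34, an all-feature median of -0.0666 and a TCA median -0.15 relative to it. On the adipocyte marker mean with its sign turned, the medians were -0.39 and -0.47, or -0.40 and -0.48 relative to all features. Apart from the choice of normalization itself, the cause of these differences was not tested.

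Leaving out 1 mouse at a time gave 0 to 227 features called for diet, namely 227 without Ctrl NR 68, 222 without 117, 80 without 104, 32 without 75, 9 without 77, 3 without No NR 78 and 2 without No NR 118. Of the 38 genes, 0 to 1 were called and 3 (without Ctrl NR 75) to 9 (without Ctrl NR 117) had an unadjusted p under 0.05. Over all features, the number at that threshold ran from 2503 (without Ctrl NR 84) to 3712 (without Ctrl NR 117), against 2973 with every mouse kept. The highest count of the 38 genes thus came without the same mouse as the highest count of all features. The gap ran over -0.16 to -0.13. On the macrophage marker mean, 9 to 12 TCA and 15 to 18 amino acid genes were called negative, against 1782 to 2223 of all features. The slope of Bckdk ran over -0.00883 to 0.0239. All 38 genes were above background on every array.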
